A study of Mus musculus with 2 samples.

Results

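Complement and coagulation proteins are the soluble factors of plasma that opsonise and lyse foreign cells and that clot blood, and their transcripts were read here in the livers of fibrotic mice given TSG-6 or PBS. The set holds 39 named genes of 20284 genes named on the array. Its members were chosen by name, and every non-control probe whose transcript accession belongs to a listed gene was taken, which gave 50 probes on 77 spots. Of the 39 members, 34 are products mainly of hepatocytes, 4 are products of macrophages and other myeloid cells (the C1q chains C1qa, C1qb and C1qc, and properdin, Cfp), and Cfd is best known from adipocytes.

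Both groups were male C57BL/6 mice with liver fibrosis, and the way fibrosis was induced, the age of the mice and the dose were not given in the sources used here. The TSG-6 group, whose sample is titled Rh_TSG-6, received recombinant TSG-6 into a vein, and the PBS group received the vehicle. TSG-6 is a secreted protein that binds hyaluronan. Liver RNA was taken 2 weeks later. Equal amounts from 3 mice made up the pool of each group, which was read on 1 Agilent array in a single colour. A difference is therefore that between 2 pools, with no replicate and no test, and array and group cannot be told apart. No liver without fibrosis was analysed here.

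The liver makes most proteins of both cascades and secretes them into plasma, mostly as inactive precursors of proteases that activate the next member by cleavage. Complement starts from C1q on antibody, from mannose-binding lectin on sugars, or by spontaneous turnover of C3, and all routes meet at C3 and end in the membrane attack complex. Coagulation runs through vitamin K-dependent proteases to thrombin, which turns fibrinogen into fibrin. C1q is the exception among the early components, since tissue macrophages, Kupffer cells among them in the liver, are its main source.

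Regulatory sequence is shown for 2 groups of neighbouring genes that stand for the 2 cell sources, the fibrinogen chains of hepatocytes and the C1q chains of macrophages. The sequences are the 250 bases before the annotated start, from RefSeq on build GRCm38.p6, in the direction of the gene. They lie at chr3:83025903-83026152 (plus strand) for Fga, chr3:83049864-83050113 (minus strand) for Fgb, chr3:83007474-83007723 (plus strand) for Fgg, chr4:136886201-136886450 (minus strand) for C1qb and chr4:136892915-136893164 (minus strand) for C1qc. Capitals mark the letters GTTAAT, part of the site of the hepatocyte factor HNF1, and GAGGAA, the core of the site of the myeloid factor PU.1, searched on both strands.
Fga: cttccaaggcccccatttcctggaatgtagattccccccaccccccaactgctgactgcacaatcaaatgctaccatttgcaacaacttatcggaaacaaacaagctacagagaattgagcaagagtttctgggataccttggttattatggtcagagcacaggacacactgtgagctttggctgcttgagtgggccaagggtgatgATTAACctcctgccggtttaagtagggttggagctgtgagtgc
Fgb: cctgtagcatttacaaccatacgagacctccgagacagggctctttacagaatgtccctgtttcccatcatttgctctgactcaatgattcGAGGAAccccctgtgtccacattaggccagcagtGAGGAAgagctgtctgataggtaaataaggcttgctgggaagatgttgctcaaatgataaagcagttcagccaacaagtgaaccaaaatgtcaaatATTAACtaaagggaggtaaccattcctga
Fgg: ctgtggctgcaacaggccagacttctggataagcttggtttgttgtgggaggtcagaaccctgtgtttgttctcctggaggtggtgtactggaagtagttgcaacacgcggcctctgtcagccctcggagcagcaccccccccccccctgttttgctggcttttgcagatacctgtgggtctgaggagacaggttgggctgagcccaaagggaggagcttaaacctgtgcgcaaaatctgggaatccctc
C1qb: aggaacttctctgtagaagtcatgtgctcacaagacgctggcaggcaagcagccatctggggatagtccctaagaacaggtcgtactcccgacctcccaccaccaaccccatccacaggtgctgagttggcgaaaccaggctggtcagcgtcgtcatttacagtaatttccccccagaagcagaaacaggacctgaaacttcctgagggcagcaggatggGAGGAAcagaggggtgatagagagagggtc
C1qc: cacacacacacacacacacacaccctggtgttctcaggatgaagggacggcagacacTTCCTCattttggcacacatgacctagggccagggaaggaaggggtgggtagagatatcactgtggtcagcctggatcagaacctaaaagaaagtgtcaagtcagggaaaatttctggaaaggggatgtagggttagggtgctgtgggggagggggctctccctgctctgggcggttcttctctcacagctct

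GTTAAT stood once in the windows of Fga and Fgb, as its reverse complement, and not in that of Fgg. GAGGAA stood once each in the windows of C1qb and C1qc and also at 2 places in that of Fgb. Of 28 such windows of hepatocyte-made members (27 genes, C8g having more than 1 start), 8 held GTTAAT, or 28.6%, against 6.43% of 32851 windows in the table. GAGGAA was in 2 of the same 28 windows, or 7.14%, and in 23.3% of all windows. Among the macrophage-made members, C1qb, C1qc and Cfp had a window, of which 2 held GAGGAA and 1, that of Cfp, held GTTAAT. A match is a run of letters and not a measured binding site.

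All 50 member probes passed the scanner software's test against background on both arrays. None of the 77 member spots was saturated. The scanner software's outlier flags fell on 6 of these spots in the PBS pool and 12 in the TSG-6 pool, and flagged spots were left out. This left 37 members with a value in both pools, while Mbl1 and F11 had only flagged values, which are given below as such and are not counted. All levels are log2 of the processed signal relative to the array's 75th percentile, whose signal was 3158 for PBS and 2476 for TSG-6. A difference is the level in the TSG-6 pool less the level in the PBS pool. The hepatocyte markers Alb, Apoa1, Apoa2 and Trf, which define the labelled tissue, stood at log2 levels of 4.24 to 4.87 in the PBS pool and 4.60 to 5.31 in the TSG-6 pool.

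No member differed by 2-fold in either direction. Past 2-fold stood 0 of 37 measured members on the higher side and 0 on the lower side, where 2.94% of 15151 measured genes were higher and 4.29% lower, 7.23% in all. The members' log2 differences ran from -0.09 (C1qc) to 0.79 (C6) with a median of 0.33, 32 (86.5%) lying above 0 and 5 below. The median of all measured genes was 0.08, with 57.5% above 0. Most members give bright spots, 27 of the 37 lying among the brightest 1516 measured genes, and over those 1516 the median difference was 0.26, 88.3% of genes lay above 0 and 0.73% were at least 2-fold higher. The interquartile range of the differences was 0.33 over the members, 0.30 over those 1516 genes and 0.56 over all measured genes.

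**Figure D1:**
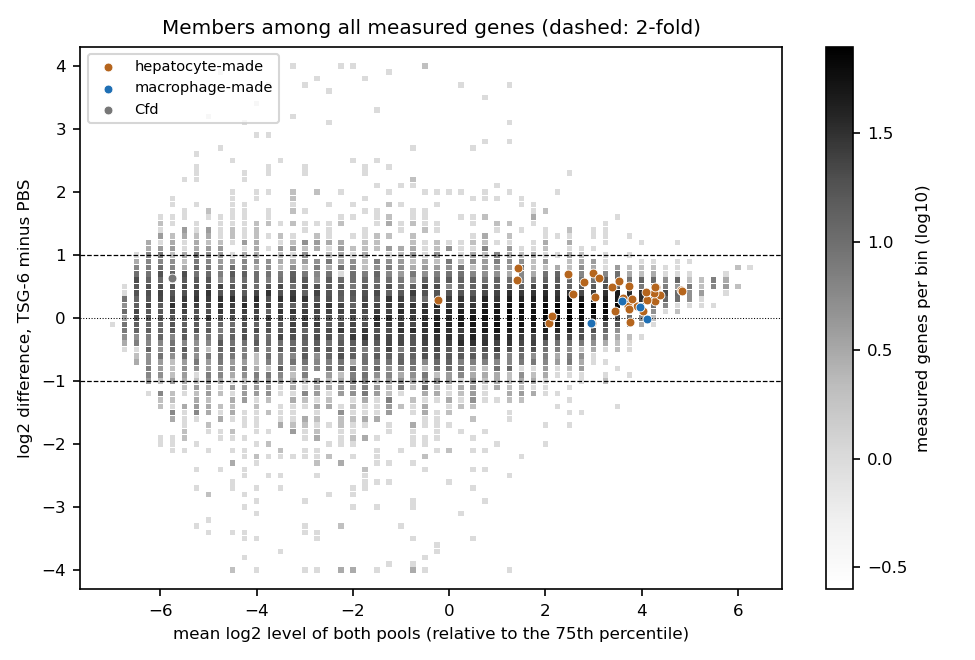
Log2 difference (TSG-6 minus PBS, vertical axis, values past 4 drawn at 4) against the mean log2 level of both pools (horizontal axis) for 15151 measured genes as grey bins and the 37 measured members as coloured points. Every member lies between the dashed 2-fold lines, and all but Cfd and Masp1 lie at mean levels above 0.

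The sign of the members' median rested on how the arrays were scaled. It was -0.085 when the arrays were scaled to their spike-in controls and 0.62 with a percentile that used unflagged spots only, and the median of all genes moved with it, to -0.34 and 0.37. Under the spike-in scaling 14 members lay above 0 and 23 at or below it. The members' median minus that of all genes, 0.26, cannot change under these, since each adds a constant to every gene. It was 0.058 after quantile normalization and 0.13 after loess, which level out differences that depend on brightness.

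The spot noise could be read from 3 members whose probe is printed 10 times on the array. C3 stood at a log2 level of 4.60 ± 0.04 (SD over 10 spots) in the PBS pool and 5.04 ± 0.07 in the TSG-6 pool. Its spots did not overlap with this scaling, and overlap was not counted over the other replicated probes. Spot by spot the difference of C3 was 0.44 ± 0.08, above 0 at 10 of 10 spots. C1qc stood at 2.99 ± 0.03 and 2.90 ± 0.06, with a difference of -0.09 ± 0.07 that was below 0 at 9 of 10 spots. The spots show the noise around a value and not its sign, which the scaling moves: C3 differed by 0.020 after spike-in scaling and 0.030 after quantile normalization, and C1qc by 0.20 with the percentile of unflagged spots. F13b, the carrier subunit of the fibrin-crosslinking factor XIII, stood at 2.63 ± 0.05 over its 6 unflagged spots in the PBS pool and 3.34 ± 0.05 over 3 in the TSG-6 pool. With its flagged spots kept, its difference over 10 spots was 0.67 ± 0.11. These SDs measure the spots of 1 array each and leave out the spread between mice.

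**Figure D2:**
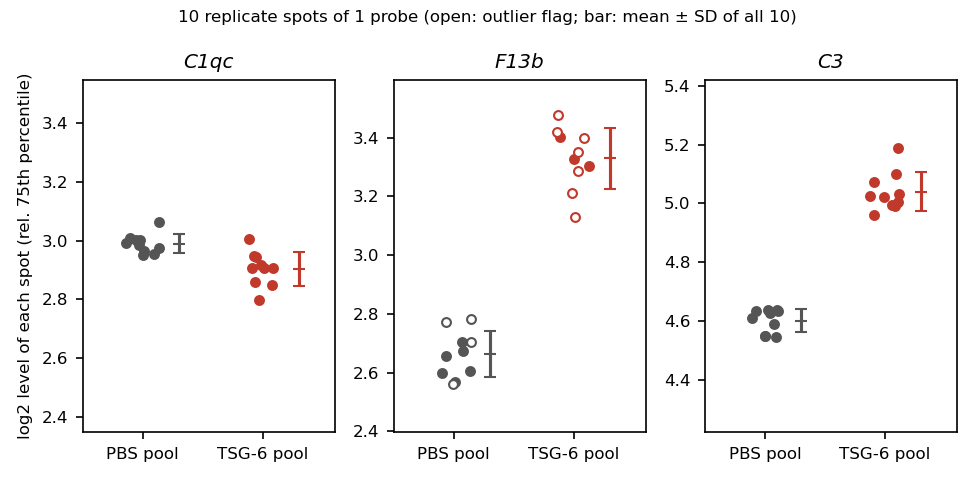
Log2 level (relative to the array's 75th percentile, vertical axis) of each of the 10 spots of the C1qc, F13b and C3 probes on the PBS and TSG-6 arrays, with open points for outlier-flagged spots and bars for the mean ± SD of all 10. With this scaling the spots of C3 and of F13b do not overlap between the arrays, while those of C1qc do. Such an overlap depends on the scaling, and it was not counted over the other replicated probes.

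The 6 genes that start the classical pathway had a median difference of 0.14, against 0.23 over all 20 measured complement members. The 3 chains of C1q, the recognition protein of the pathway, were nearly level with this scaling. C1qa stood at a log2 level of 3.89 in the PBS pool and 4.06 in the TSG-6 pool, a difference of 0.17. C1qb stood at 4.11 and 4.09, a difference of -0.02, and C1qc was given above. The chains, which assemble into a single molecule, thus spanned 0.26 on the log2 scale. In the order C1qa, C1qb and C1qc, they differed by -0.25, -0.44 and -0.50 after spike-in scaling. After quantile normalization the differences were -0.15, -0.36 and -0.23. With the percentile of unflagged spots they were 0.46, 0.27 and 0.20. C1ra, the protease that activates C1, read 3.40 and 3.51 with its brighter probe, a difference of 0.11, and 0.57 with its other probe. C4b, which C1 cleaves, read 3.82 and 4.01 (0.20). C2, the protease of the resulting C3 convertase, read 3.14 and 3.63 (0.49), the highest of this group. C4b has a near-identical copy in C4a and C1ra in C1rb, so their values are uncertain.

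The lectin route gave a median of 0.29 over 3 measured genes. Mbl2, a mannose-binding lectin, read 3.97 in the PBS pool and 4.09 in the TSG-6 pool, a difference of 0.12. Mbl1, its paralogue, had only a flagged spot in the TSG-6 pool and read 0.43 with it. The lectin-bound protease Masp2, which cleaves C4 and C2, read 3.24 and 3.83 (0.59), and another probe of the same transcript gave 0.49. Another probe, placed on another transcript of the gene, read 0.32 and 1.32. Its difference of 0.998 was just under 2-fold and was the largest of any member probe. Masp1, the protease that activates Masp2, lay below the 75th percentile in both pools, at -0.39 and -0.09, a difference of 0.29.

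In the central and alternative steps all 4 members lay above 0 with this scaling, with a median of 0.47. C3, on which all routes converge, was 1.35-fold higher. Cfb, the protease of the alternative convertase, read 3.48 and 3.99 (0.51, 1.42-fold). Cfp, properdin, which stabilises that convertase, read 3.46 and 3.72 (0.26). Cfd, adipsin, the protease that cleaves factor B, was near background at -6.08 and -5.45, a processed signal of 46.6 and 56.8, and its difference of 0.64 rests on that dim spot. Adipocyte markers, listed because adipose tissue is the usual source of Cfd, were measured for 3 of 5 genes. Adipoq differed by 0.59, Retn by 0.21 and Cidec by -0.78, Plin1 and Lep were not well above background in either pool, and the part of adipose RNA in the value of Cfd was not tested. Cfi, the protease that inactivates C3b and C4b, read 3.66 and 3.80 (0.14).

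The terminal components, which build the membrane attack complex, included the highest member of the set. C6 read 1.04 in the PBS pool and 1.82 in the TSG-6 pool, a difference of 0.79 or 1.72-fold. It was the only member to pass 2-fold under any alternative tried, at 1.08 with the percentile of unflagged spots. The other terminal genes differed less, with 0.27 for Hc, which encodes C5, 0.33 for C8b, 0.18 for C8g and 0.04 for C9, the subunit that forms the ring of the pore. C8a read 2.11 and 2.03 (-0.08) with its unflagged probe and 0.35 with a brighter probe whose TSG-6 spot was flagged. The subunits of C8 therefore read from -0.08 to 0.33 with unflagged probes and from 0.33 to 0.64 with the brighter probes of C8a and C8g.

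**Figure D3:**
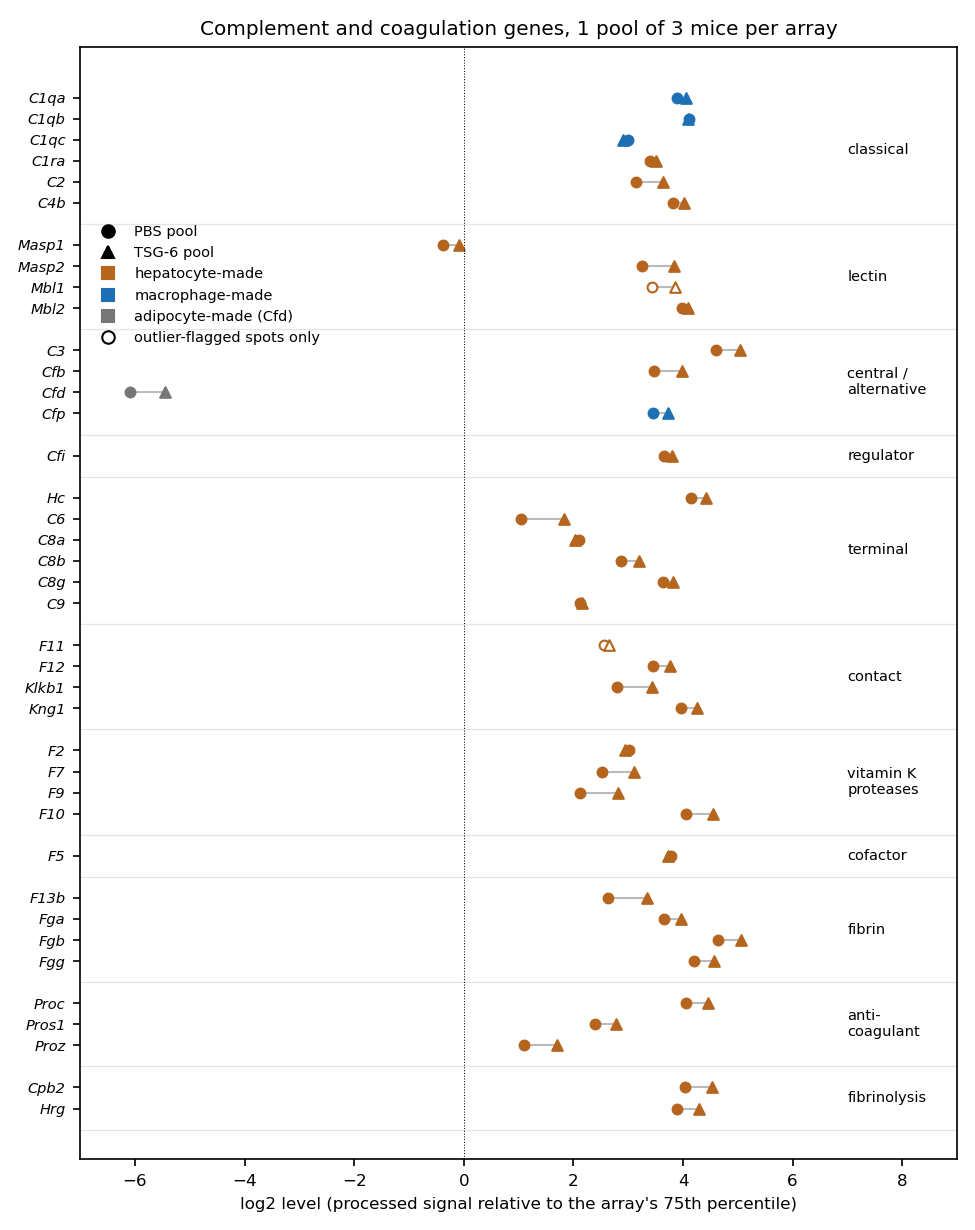
Log2 level (relative to the array's 75th percentile, horizontal axis) of each of the 39 members in the PBS pool (circles) and the TSG-6 pool (triangles), ordered by role, with colour for the main cell source and open marks for members with flagged spots only. The marks of each pair lie close together, the widest pair of a measured member being that of C6, and Cfd alone stands far below the others.

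The 18 coagulation members, 17 of them measured, had a median of 0.41, against 0.23 for the 20 measured complement members. The middle ranges, from the 25th to the 75th percentile, overlapped at 0.32 to 0.57 and 0.12 to 0.45. The complement members include all of the macrophage-made ones, so that cell source enters this contrast, which was not computed without them. In the contact system, which starts clotting on surfaces and releases bradykinin, F12 read 3.45 and 3.77 (0.32). Klkb1, plasma prekallikrein, read 2.80 and 3.44 (0.64, 1.56-fold). Kng1, the kininogen that carries bradykinin, read 0.29 with its brighter probe and 0.46 with a probe on another transcript, and its paralogue Kng2 may share signal. F11 had flagged spots on both arrays and read 0.09 with them.

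The vitamin K-dependent proteases did not read alike. F9, the factor missing in haemophilia B, read 2.13 in the PBS pool and 2.82 in the TSG-6 pool, a difference of 0.69 or 1.62-fold. F7, which starts the tissue factor route, read 2.52 and 3.10 (0.57), and its other probe, flagged in the TSG-6 pool, also gave 0.57. F10, which makes thrombin from prothrombin, read 4.05 and 4.54 (0.50), and 0.25 with a probe on another transcript. F2, prothrombin itself, read 3.02 and 2.94 (-0.08). F5, the cofactor of F10, was on the same side as F2 at 3.78 and 3.72 (-0.06), with 0.23 from a probe flagged in the PBS pool. F2, F5 and C8a were the hepatocyte-made members below 0 with this scaling. With the percentile of unflagged spots none of the 37 members was below 0 (F2 0.21, F5 0.23, C8a 0.21), and after quantile normalization 16 members were at or below it.

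The fibrinogen chains, which are made in equal number for each molecule, lay close together. Fga read 3.66 and 3.96 (0.30), Fgb 4.63 and 5.06 (0.43) and Fgg 4.20 and 4.56 (0.36). Another probe of Fga gave 0.68, so that the span between probes of Fga was wider than that between the chains. F13b was higher at 0.71, or 1.63-fold. Fibrinogen genes are part of the acute phase response. The 6 measured of 13 listed acute phase genes had a median of 0.17 and ran from -0.06 (Apcs) to 0.37 (Itih4). With flagged spots kept, 12 of the 13 lay above 0, with a median of 0.24 and with Orm2 the highest at 0.98. Of the 6 measured, 5 lay below 0 after quantile normalization and all 6 after spike-in scaling.

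The anticoagulants were all above 0 with this scaling, though Proc and Pros1 lay below it after spike-in scaling (-0.014 and -0.038). Proc, protein C, read 4.05 and 4.45 (0.40), and its cofactor Pros1 read 2.39 and 2.77 (0.38). Proz, which helps to inhibit F10, stood at 2.15 times the 75th percentile in the PBS pool and 3.26 times in the TSG-6 pool (0.60, 1.52-fold). Cpb2, the carboxypeptidase that protects fibrin from plasmin, read 4.03 and 4.53 (0.50). Hrg, a histidine-rich modulator of clotting and fibrinolysis, read 3.88 and 4.29 (0.41), and its difference was -0.0069 after spike-in scaling.

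Hepatocyte-made factors stood above macrophage-made ones in the TSG-6 to PBS difference. The median was 0.37 over 32 hepatocyte-made members (29 above 0) and 0.07 over the 4 macrophage-made members (2 above 0), a gap of 0.30 on the log2 scale. The groups overlapped, since 9 of the 32 hepatocyte-made members lay below Cfp, the highest macrophage-made member at 0.26. The gap ran from 0.24 after quantile normalization to 0.32 with flagged spots kept, and it was 0.27 without C1ra, C2, Cfb and Pros1, which other cells also make. Scaling by another constant cannot change it. The hepatocyte-made group holds all of the coagulation members, whose median was 0.41, and the gap within complement alone was not computed. The interquartile range within the hepatocyte-made members was 0.30, as wide as the gap. Probes of the same gene spanned a median of 0.31 over the 6 members with more than 1 unflagged probe. The gap rests on 4 genes in 1 pool per group and has no test, and 3 of these genes, the C1q chains, are neighbours in the genome. In whole liver RNA, fewer cells of a type and less RNA per cell cannot be told apart.

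Markers of the cell types that make these proteins were read beside them. The 7 measured of 8 hepatocyte markers had a median difference of 0.36, all above 0, from 0.17 (Hnf4a) to 0.44 (Trf). The 6 Kupffer cell markers had a median of 0.22, all above 0, of which Timd4 was 2.39-fold higher. These signs rest on the scaling. After spike-in scaling 6 of the 7 hepatocyte markers and 5 of the 6 Kupffer cell markers lay below 0, and after quantile normalization 6 and 3 did. Timd4 differed by 0.84 after spike-in scaling, under 2-fold. Of the other macrophage and monocyte markers 6 of 9 were measured, with a median of -0.40, 1 above 0 and 5 below. Cd14, a receptor for bacterial lipopolysaccharide, was 2.15-fold lower. With the percentile of unflagged spots the median of these 6 was -0.11, with 3 above 0 and 3 below. Cd14 then differed by -0.81, under 2-fold. The summed level of these 6, as multiples of the 75th percentile, was 30.5 in the PBS pool and 27.2 in the TSG-6 pool. That of the Kupffer cell markers was 54.1 and 63.1. Properdin is also made by neutrophils, whose 9 markers had a summed level of 31.4 and 59.0, with 5 at least 2-fold higher. These 5 were the granule genes Mpo, Ngp, Ltf, Elane and Camp. The other neutrophil markers were within 2-fold, with S100a8 at 0.85, Csf3r at 0.44, S100a9 at 0.18 and Cxcr2 at -0.19. What part changes of these cells have in the values of C1q and Cfp was not tested.

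**Figure D4:**
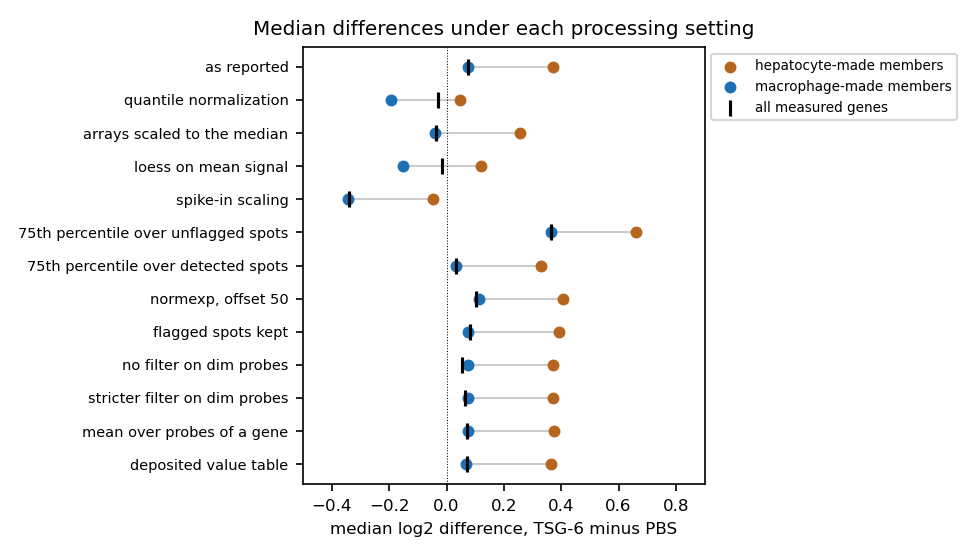
Median log2 difference (TSG-6 minus PBS, horizontal axis) of the hepatocyte-made members, the macrophage-made members and all measured genes under the reported processing and each of 12 alternatives. The hepatocyte-made median lies to the right of the macrophage-made one in every setting shown, by 0.24 to 0.32. Settings that add a constant to every gene shift both alike and cannot change this distance.

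Members that lie near each other in the genome were set side by side. By the RefSeq gene table, 17 members fall into 7 groups with under 100 kb between neighbours. F7, F10 and Proz differed by 0.57, 0.50 and 0.60, a span of 0.11. Cfb and C2 differed by 0.51 and 0.49, a span of 0.02. The fibrinogen chains spanned 0.12, and Hrg and Kng1 spanned 0.12 as well. C8b and C8a spanned 0.41 with unflagged probes, and F11 had no unflagged value to set beside Klkb1. For comparison, probes of the same gene spanned a median of 0.31 over the 6 members with more than 1 unflagged probe, so a span between neighbours below that is within what different probes of a gene give.

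The other genes of the pathways, from a list of 54 that are not members, included some past 2-fold. Of 44 measured, 2 (4.55%) stood past 2-fold on the higher side and 5 (11.4%) on the lower side, with a median of 0.23, beside 2.94% and 4.29% of all measured genes. Of the complement regulators, which restrain the cascade in plasma and on host cells, 11 of 11 measured lay above 0, with a median of 0.35, though 7 lay below 0 after spike-in scaling and 3 after quantile normalization. Among them the cell-surface inhibitor of the membrane attack complex Cd59b stood at -2.97 in the PBS pool and -1.94 in the TSG-6 pool, 2.04-fold higher. Its difference was 0.61 after spike-in scaling, under 2-fold. The next highest was Cd55b (0.87, dim in both pools), and the lowest were the membrane regulator Cr1l (0.18) and Cfhr2 (0.20).

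Complement receptors split. C5ar1, the receptor for the chemoattractant C5a, stood at -0.49 in the PBS pool and -2.02 in the TSG-6 pool, 2.89-fold lower. C3ar1, the receptor for C3a, stood at -0.14 and -1.47, 2.51-fold lower, and Itgax, the alpha chain of complement receptor 4, stood at 1.22 and -0.21, 2.70-fold lower. The ligand genes C3 and Hc differed by 0.44 and 0.27 in the same pools, and by 0.020 and -0.14 after spike-in scaling. The other receptors were within 2-fold, the highest being Cr2 (0.66, with -0.33 from its other probe) and Itgam (0.33, its 3 probes running from -1.12 to 0.33). The receptor of resident macrophages Vsig4 differed by 0.27.

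Among the other complement components, 5 of 10 were measured and all lay above 0, 3 of them also after spike-in scaling. Fcnb, a ficolin of neutrophil granules, stood at -5.74 in the PBS pool and -3.24 in the TSG-6 pool, 5.63-fold higher. It was dim in the PBS pool, so that the size of this fold is uncertain, and its difference was 1.42 under normexp background correction, the lowest of the alternatives. C1rb differed by 0.69, C1s2 by 0.36 and C1rl by 0.20. Neutrophil granule genes on the marker list were higher in the same pool, led by Mpo (14.8-fold), and their part in the value of Fcnb was not tested.

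Coagulation factors outside the list were near level, with a median of 0.04 over 7 genes. They ran from F13a1, the catalytic subunit of factor XIII (-0.31), and the carboxylase Ggcx (-0.02) to Vwf (0.22) and Adamts13, the protease that cleaves von Willebrand factor (0.48). F13a1 and its carrier F13b lay on opposite sides of 0. Of the inhibitors and receptors, the hepatocyte serpin antithrombin, Serpinc1, and the protease inhibitor Tfpi2 were the highest at 0.43 and 0.42. The lowest were thrombomodulin, Thbd (2.08 in the PBS pool and 1.11 in the TSG-6 pool, 1.96-fold lower) and Serpina5 (-0.86, dim in both pools). Procr, the endothelial protein C receptor, differed by -0.64, and Proc, whose product it binds, by 0.40 (-0.014 after spike-in scaling). Of the 5 measured endothelial markers 4 lay above 0, with a median of 0.27, and 1 did after spike-in scaling.

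Of 4 measured fibrinolysis genes, 2 were lower past 2-fold, beside 4.29% of all measured genes. Plaur, the urokinase receptor, stood at 0.50 in the PBS pool and -1.49 in the TSG-6 pool, 3.995-fold lower. Urokinase itself, Plau, stood at -2.82 and -4.82, 3.99-fold lower. Plau was dim in the TSG-6 pool, so that the size of its fold is uncertain. Its difference was -1.40 in the alternative that made it smallest. The hepatocyte-made plasminogen, Plg, differed by 0.29 and its inhibitor Serpinf2 by 0.14, within the range of the members. Plat, tissue plasminogen activator, had only flagged values, and these were 4.44-fold lower.

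**Figure D5:**
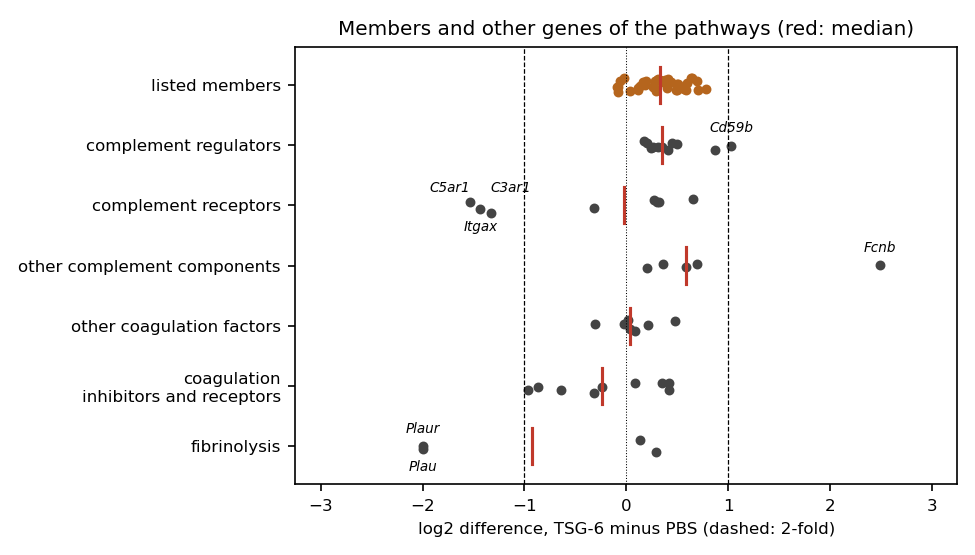
Log2 difference (TSG-6 minus PBS, horizontal axis) of the 37 measured members and of the measured genes of 6 other pathway lists, 1 point per gene, with red bars for the median of each row and dashed lines at 2-fold. The members cluster between -0.09 and 0.79, and the named genes past 2-fold lie among the regulators, receptors, other components and fibrinolysis genes.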

How the data were processed

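Liver RNA of 2 pools of 3 mice was measured on 2 one-colour arrays, labelled from 0.2 ug of RNA per the labels' protocols. The deposited scanner files give each spot's intensity as the processed signal, which per the file headers is corrected for background and for trends across the array. Agilent Feature Extraction is named as 11.5.1.1 in the headers, with array build mm9, and as 10.7 in the submitters' processing notes. The deposited value table holds log2 values, which equalled the log2 processed signal minus a constant within 0.001 for 99.4% of probes for PBS and 99.3% for TSG-6. Its column medians were -3.90 and -3.77.

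Here log2 of the processed signal was taken relative to each array's 75th percentile over 59305 non-control spots, with no pseudocount. Spots that the software flagged as outliers, for uneven pixels or against their replicates, were left out (3.40% for PBS, 6.44% for TSG-6). Replicate spots were averaged. A probe was measured when 50% or more of its spots passed the software's test against background on both arrays, and a gene was read from its measured probe of highest mean level. Accessions were named through the RefSeq gene table of GRCm38.p6, which named 26762 of 55681 probes. Of 39 members, 31 had an entry in the RefSeq promoter table. Protein sequences were not used here.

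Members are named throughout. Other pathway genes are named when past 2-fold or among the 2 highest and 2 lowest of their list, and genes named outside this rule were chosen after their values were seen. A listed pathway gene is not reported here and enters no count of the lists. The members and lists were chosen with earlier results of these data known. With 1 array per group, genes were counted by a fixed size of 2-fold; the precision is limited by the number of arrays. Alternatives were scaling by quantiles, by the median, by loess or to spike-in controls, the percentile over unflagged or detected spots, normexp of the median spot and background signals (offset 50), flagged spots kept, no filter or a 4-fold stricter filter on dim probes, the average of a gene's probes and the deposited value table. Steps were tested on simulated data. R 4.3.3 with limma 3.58.1 and Python 3.11.15 were used.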

Additional observations from a re-analysis of the deposited data

How the results depend on the processing

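The gap between the hepatocyte-made and macrophage-made medians, 0.30, cannot change where a scaling adds a constant to every gene, nor did it under the filters on dim probes, which remove or add no gene of either group. The settings that could change it gave 0.24 after quantile normalization, 0.27 after loess, 0.29 with normexp, 0.32 with flagged spots kept and 0.30 with the mean over probes, and it was 0.27 without the 4 genes that several cell types make. The count of members at least 2-fold lower was 0 in every setting, and that of members at least 2-fold higher was 0 except for 1, C6, with the percentile over unflagged spots. The members' median difference of 0.33 was 0.030 after quantile normalization, 0.11 after loess, -0.085 after spike-in scaling and 0.62 with the percentile over unflagged spots. Their median above that of all genes, 0.26, was 0.058 after quantile normalization and 0.13 after loess. The other settings moved these values by less than the spot SD. Among single members, 18 of 37 changed sign after spike-in scaling, 11 after quantile normalization, 8 after loess and 5 with the percentile over unflagged spots, none of them past 2-fold. Flagged members could be read only with flagged spots kept. Leaving out a replicate was not run, and no paired analysis was possible because each group has 1 array.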
